A study of Mus musculus and Homo sapiens with 9 samples.

Results

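Translation initiation and elongation factor genes were examined for binding of thymine DNA glycosylase (TDG) and of the transcription factor p53. TDG excises mispaired thymine and some oxidised forms of methylcytosine to start base excision repair. The members were the protein-coding RefSeq genes whose symbols begin with Eif1 to Eif6, Eef1 or Eef2, and 71 of 21887 protein-coding genes on placed mouse chromosomes met this rule. Besides the factors themselves it takes in their kinases, binding proteins and methyltransferases and 1 read-through gene, Eef1akmt4-ece2, which shares its start with Eef1akmt4. The rule itself uses symbols and no measured value, but the set was proposed with earlier results of these data known.

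The data were 2 chromatin immunoprecipitation sequencing (ChIP-seq) libraries from B16 cells, a mouse melanoma line for which the labels name no treatment, with an HA tag knocked into the Tdg locus. In 1 library an HA antibody recovered tagged TDG, and in the other a p53 antibody recovered p53. Chromatin had been fixed with 1% formaldehyde for 10 min and sheared to about 300 bp. Input, IgG, untagged and Trp53 KO controls are among the 7 of 9 samples not analysed here, so dependence of the peaks on the tag or on p53 was not tested. Neither library had a replicate, the labels do not say whether the tagged cells are a single clone, and peak lists measure no expression, so the melanoma identity of the cells was not checked.

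The TDG list held 3410 peaks (median 5.74-fold) and the p53 list 126 (median 13.5-fold). Fold enrichment is the authors' ratio of the summit to the local background, and it was used within its own list only. The highest fold enrichment in the TDG list was at Tdg itself (28.9-fold), which is the edited locus and therefore no check of the HA antibody. Cdkn1a, the p53 target that encodes the cell cycle inhibitor p21, held a 32.5-fold p53 peak 36 bases from its end. Library totals were not given, but reads at each summit could be recovered from the deposited values, and the median summit held 24 reads for TDG and 77 for p53.

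Initiation begins when the factor eIF2 brings initiator tRNA to the small ribosomal subunit, with eIF1, eIF1A, eIF3 and eIF5 attached. The cap-binding protein eIF4E, the scaffold eIF4G and the helicase eIF4A then load the mRNA, and eIF5B joins the large subunit. In elongation eEF1A delivers aminoacyl-tRNA and eEF2 moves the ribosome along. Stress kinases that phosphorylate eIF2, the eIF4E-binding proteins and the eEF2 kinase adjust the rate, and high translation factor activity is a known feature of growing tumour cells, melanoma included.

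The promoters of the 5 members with the highest TDG fold enrichment among those with a listed promoter near the summit are shown because the peaks lie on or beside them. Each line gives the 250 bases before the listed start, read 5′ to 3′ on the strand of the gene, from RefSeq build GRCm38.p6. Capitals mark matches on either strand to CACGTG (the E-box core), TGACGTCA (the cAMP response element), CCGGAA (an ETS-type core), CCAAT and GGGCGG (the GC box, which reads CCGCCC on the other strand), where the match lies wholly before the start. None of these matches overlapped another.
Eif4g1 (chr16:20672477-20672726, plus strand): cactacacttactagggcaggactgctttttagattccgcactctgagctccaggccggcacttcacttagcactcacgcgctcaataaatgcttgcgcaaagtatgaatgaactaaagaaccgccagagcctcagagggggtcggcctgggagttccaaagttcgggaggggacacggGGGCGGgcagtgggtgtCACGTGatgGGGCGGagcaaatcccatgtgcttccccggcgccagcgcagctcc
Eef2kmt (chr16:5255957-5256206, minus strand): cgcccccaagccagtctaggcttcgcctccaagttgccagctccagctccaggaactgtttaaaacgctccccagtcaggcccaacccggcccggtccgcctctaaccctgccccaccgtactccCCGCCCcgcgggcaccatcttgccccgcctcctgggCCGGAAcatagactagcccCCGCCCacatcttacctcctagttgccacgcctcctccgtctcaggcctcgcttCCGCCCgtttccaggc
Eif2ak4 (chr2:118388367-118388616, plus strand): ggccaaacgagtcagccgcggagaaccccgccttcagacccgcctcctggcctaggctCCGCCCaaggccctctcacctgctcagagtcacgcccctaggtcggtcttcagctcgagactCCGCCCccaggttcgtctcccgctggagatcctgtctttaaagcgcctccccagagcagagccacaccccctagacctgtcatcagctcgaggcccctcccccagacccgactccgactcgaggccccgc
Eif2s1 (chr12:78861822-78862071, plus strand): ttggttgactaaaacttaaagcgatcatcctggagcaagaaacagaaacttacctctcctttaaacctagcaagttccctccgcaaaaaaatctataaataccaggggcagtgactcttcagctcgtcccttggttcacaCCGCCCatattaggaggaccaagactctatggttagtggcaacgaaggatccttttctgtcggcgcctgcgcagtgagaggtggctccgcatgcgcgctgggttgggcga
Eif4b (chr15:102073523-102073772, plus strand): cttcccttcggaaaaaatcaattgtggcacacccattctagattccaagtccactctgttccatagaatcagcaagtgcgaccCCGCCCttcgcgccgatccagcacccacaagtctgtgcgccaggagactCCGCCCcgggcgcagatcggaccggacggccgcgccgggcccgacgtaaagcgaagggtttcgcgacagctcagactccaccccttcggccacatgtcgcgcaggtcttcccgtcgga

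The first question was how many of these genes TDG occupied. A TDG summit lay within 1 kb of an end of 22 of the 71 members (31.0%, exact binomial 95% interval 20.5 to 43.1%), against 12.2% of the other 21816 protein-coding genes on the same chromosomes. The share was therefore 2.53 times that of the other genes. The interval covers counting error only, and no test was run, since there was 1 library and neighbouring genes are not independent. The 22 genes rested on 21 peaks, because Eef1akmt4 and Eef1akmt4-ece2 have the same one. The other 49 members had no summit within 1 kb. The lowest member summit held 18 reads and the lowest summit at any other gene end 15, so weaker binding at those 49 was not detectable at this depth.

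Among genes with CpG-rich promoters the shares were closer. A promoter window of 300 bases was listed for 55 members, and 40 of them (72.7%, interval 59.0 to 83.9%) were CpG-rich, taken as at least 55% GC with CpG at 0.6 or more of its expected frequency, against 41.2% of the other genes with a listed promoter. Of the 40 CpG-rich members, 14 had a TDG peak (35.0%, interval 20.6 to 51.7%), against 23.7% of the other CpG-rich genes, which lies inside the interval. The ratio of the shares was 1.47 there. The 40 and the 14 count Eef1akmt4 and its read-through gene separately, although they share the same promoter sequence and peak. Of the 15 members with another listed promoter, 3 had a peak (20%, interval 4.33 to 48.1%), against 5.26%.

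**Figure D1:**
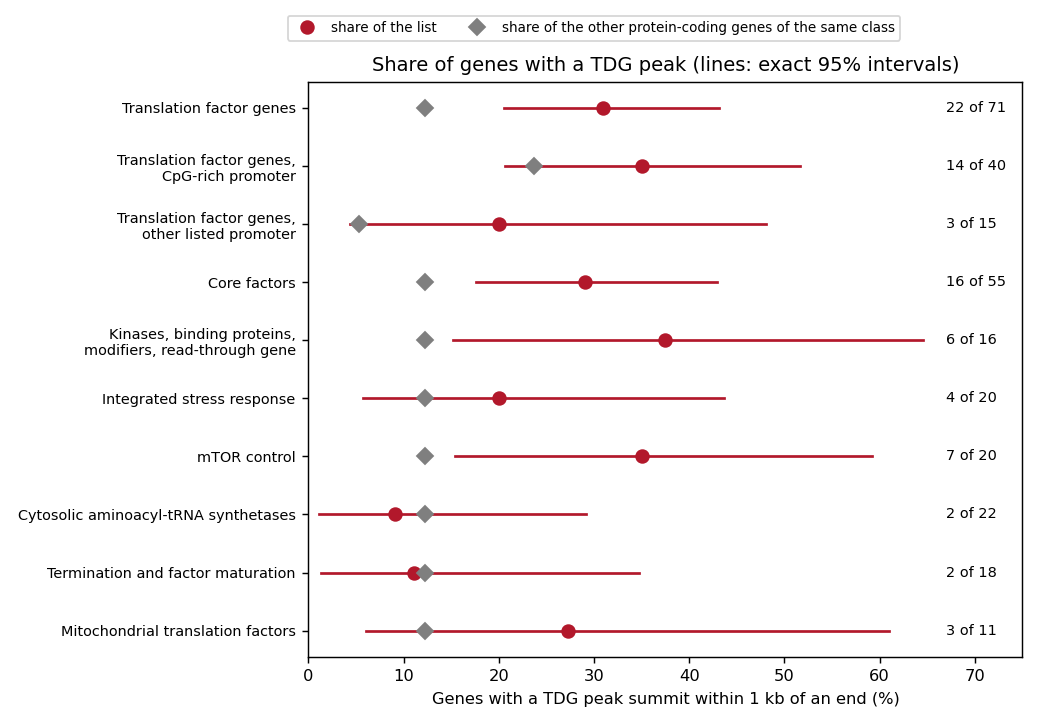
Share of genes with a TDG summit within 1 kb of an end (x axis, percent) for the translation factor genes, their subsets and 5 related lists. Red points are the list with its exact 95% interval, and counts stand at the right. Grey diamonds are the other protein-coding genes, limited to the same promoter class only in the rows split by promoter. The grey diamond lies outside the interval for all members (31.0% against 12.2%) and inside it for members with CpG-rich promoters (35.0% against 23.7%).

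Among the initiation factors, the eIF4 group, which binds the cap and unwinds mRNA, had a TDG peak at 4 of 13 genes (30.8%, interval 9.09 to 61.4%), against 12.2% of other genes, which lies inside the interval. The highest member peak of all stood at Eif4g1, the scaffold that links cap, helicase and ribosome (8.33-fold, 31 summit reads, −log10 q of 15.3), on mm10 chromosome 16, 20672502 to 20672810. Its summit was 33 bases before the start of the gene annotation and 40 bases before the listed promoter start, inside the sequence shown above. Eif4b, a cofactor of the helicase, held a 975-base peak of 7.55-fold (28 reads), chromosome 15, 102073418 to 102074392, with the summit 101 bases before the start. Eif4g2 encodes an eIF4G relative that lacks the eIF4E-binding region, and its peak reached 5.99-fold with 22 reads. The peak counted for Eif4e1b, the oocyte relative of eIF4E (7.81-fold), was 795 bases from that gene but 152 bases from the start of Tspan17. The cap-binding protein gene Eif4e, its relatives Eif4e2 and Eif4e3, the helicase genes Eif4a1, Eif4a2, Eif4a3 and Eif4a3l1, and Eif4g3 and Eif4h had no peak at an end.

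eIF3, the largest initiation factor, which binds the small subunit and helps recruit mRNA, had a TDG peak at 3 of its 14 genes (21.4%, interval 4.66 to 50.8%), against 12.2% of other genes, again inside the interval. These were Eif3j1 (7.29-fold, 27 reads, summit 31 bases inside the gene), Eif3l (5.99-fold, 22 reads) and Eif3e (4.95-fold, 18 reads), the last with the fewest summit reads of any member. Eif3a, Eif3b, Eif3c, Eif3d, Eif3f, Eif3g, Eif3h, Eif3i, Eif3j2, Eif3k and Eif3m had none. Eif3d came closest, with a 5.99-fold summit 2242 bases from its end.

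eIF2 and its control were represented at several steps, with shares whose intervals all hold the 12.2% of other genes. Of 6 genes for eIF2 and initiator tRNA delivery 1 had a peak (16.7%), a share near that of other genes. It was Eif2s1, the alpha subunit that the stress kinases phosphorylate (7.55-fold, 28 reads, chromosome 12, 78861513 to 78862393). Of 5 genes for eIF2B, the exchange factor that recharges eIF2 with GTP, 1 had a peak (20%), namely Eif2b2 (5.47-fold, 28 reads, summit 69 bases before the start). Of the 4 eIF2 kinase genes, 2 had one (50%, interval 6.76 to 93.2%). Eif2ak4 encodes GCN2, which senses uncharged tRNA, and its 809-base peak (7.70-fold, 29 reads) lay on chromosome 2, 118388299 to 118389107. Eif2ak3 encodes PERK, which senses unfolded protein in the endoplasmic reticulum, and its peak reached 5.70-fold with 27 reads. Eif2ak1 (HRI) and Eif2ak2 (PKR) had no peak within 1 kb of an end, and the nearest summit to Eif2ak1 was 6921 bases away.

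The genes numbered eIF5 and eIF6, which act at different steps and are grouped by name, had a TDG peak at 4 of 5 (80%, interval 28.4 to 99.5%), against 12.2% of other genes. That count was 2 of 5 (40%) with a window of 500 bases, against 10.9% of other genes, and 2 of 5 with peaks at the end of 1 gene only, against 8.26%. Eif5a, whose product helps ribosomes through difficult sequences during elongation, had a peak of 6.77-fold (25 reads) 376 bases inside the gene. Eif5, which makes eIF2 hydrolyse its GTP, had one of 6.42-fold with 32 reads over a local background of 3.76 reads after library scaling, 1.47 times the genome-wide value. Eif5b (5.32-fold, 26 reads) and Eif6, which keeps the ribosomal subunits apart (5.21-fold, 19 reads), had lower peaks at greater distances, 574 and 572 bases. Eif5a2 had none. With groups of 4 to 14 genes the roles cannot be ranked. The 5 genes of the eIF1 and eIF1A group and the 4 genes for eIF4E-binding proteins (Eif4ebp1, Eif4ebp2, Eif4ebp3 and Eif4enif1) had no peak, and counts of 0 there allow shares of up to 52.2% and 60.2% by the same intervals, which include 12.2%.

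Elongation factors had a TDG peak at 3 of 7 genes and their modifiers at 3 of 7 (42.9%, interval 9.90 to 81.6% for each), against 12.2% of other genes, which lies inside the interval. For all 3 elongation factors an end of a neighbouring gene was nearer the summit, so with peaks at the end of 1 gene only the count was 0 of 7, against 8.26% of other genes. Eef2 encodes the translocase, and its peak (6.25-fold, 23 reads) lay 309 bases beyond the stop end of the gene, the 1 case of a peak at a stop among members with known strand. Eef1d and Eef1b2 encode exchange factor subunits of eEF1, and their peaks reached 5.56-fold (23 reads) and 3.71-fold (19 reads). The Eef1b2 peak was the weakest of the 21, with a −log10 q of 3.34 and a local background of 4 scaled reads. Eef1a1, Eef1a2, Eef1g and Eef1e1, the last placed in this group by its name, had none. Among the modifiers, Eef2kmt, a methyltransferase of eEF2, had the peak with the highest −log10 q of the members (16.0, 8.14-fold, 33 reads, chromosome 16, 5255800 to 5256197). Eef2k, the kinase that inhibits eEF2, had one of 5.99-fold with 22 reads, and Eef1akmt4, a methyltransferase of eEF1A, one of 5.56-fold with 23 reads. The read-through gene Eef1akmt4-ece2 held a further summit (5.14-fold) in its body, 9991 bases from an end.

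**Figure D2:**
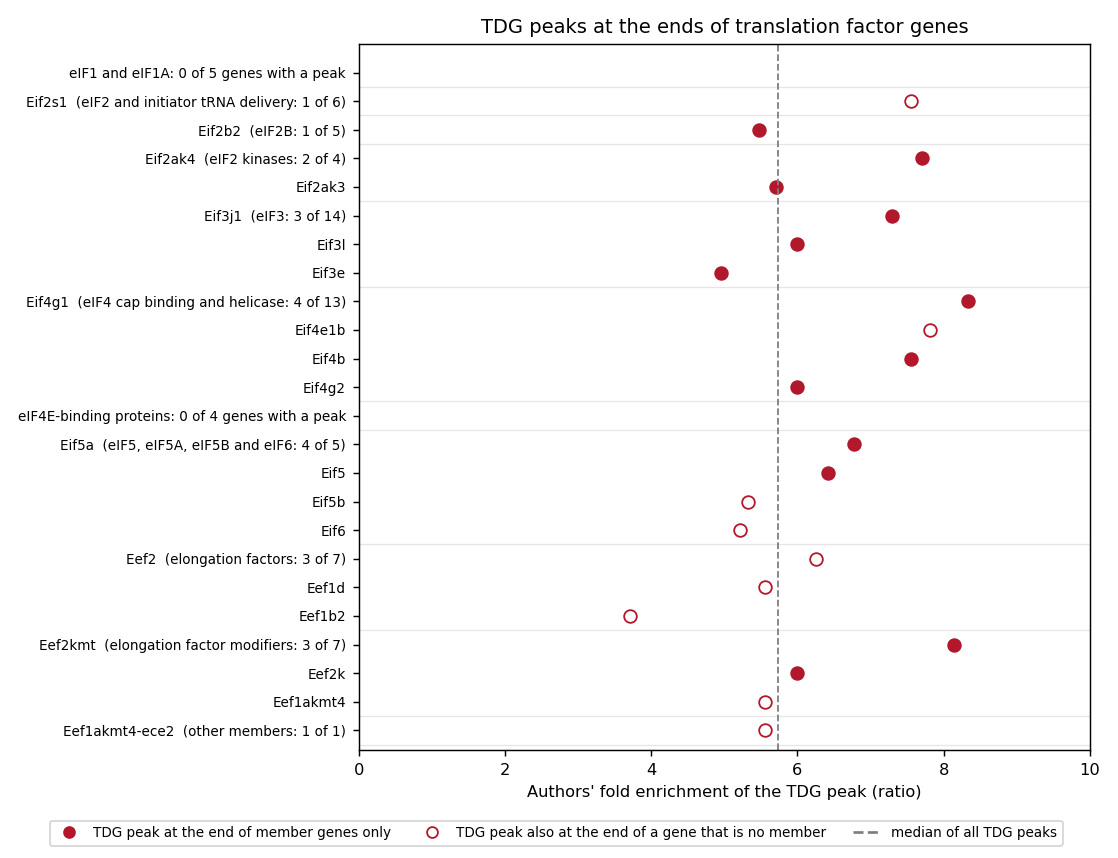
The authors' fold enrichment (x axis, ratio) of the TDG peak at each of the 22 member genes that had one, grouped by role, with the number of genes in each role. Filled points are peaks at the ends of members only and open points are peaks that also lie at the end of a gene that is no member; the dashed line is the median of all TDG peaks (5.74-fold). Values run between 3.71-fold at Eef1b2 and 8.33-fold at Eif4g1, and the eIF1 and eIF4E-binding protein rows are empty.

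Within 1 kb, the members farthest out were Eif4e1b at 795 bases, Eif5b at 574 and Eif6 at 572. The nearest ones outside were Eif3d at 2242 bases, Eif4a1 at 4288 (5.73-fold) and Eif2ak1 at 6921 (5.73-fold), followed by Eif2b4 at 7388 and Eif2b5 at 7577. A window of 3 kb therefore added only Eif3d, for 23 of 71 members (32.4%), against 14.3% of other genes. The nearest TDG summit was over 100 kb away for 24 members (33.8%, interval 23.0 to 46.0%), against 58.9% of other genes.

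The strength of the member peaks was close to that of peaks at other gene ends. The 21 member peaks had a median fold enrichment of 5.99 with quartiles of 5.56 and 7.55, and the 2269 TDG peaks at the ends of other genes had a median of 5.99 with quartiles of 5.14 and 6.93. Of the 21, 10 exceeded the median of the other gene-end peaks (47.6%, interval 25.7 to 70.2%). The peaks at Eef2k, Eif4g2 and Eif3l equalled it at 5.99-fold and are not among the 10. Counting only peaks at or above the median of the whole TDG list left 13 of 71 members (18.3%), against 6.59% of other genes. The median summit held 26 reads at member ends and 24 at other gene ends, and the median width was 485 bases at member ends and 433 bases at other gene ends. The highest member peak, at Eif4g1, was far below the 28.9-fold peak at the edited Tdg locus.

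Several member peaks lay between a member and a neighbouring gene. Of the 22 members with a peak, 9 had one that was also within 1 kb of an end of a gene outside the set (40.9%, interval 20.7 to 63.6%), against 32.7% of the 2667 other genes with a peak that had one at the end of another gene too. For 7 of those 9 the neighbour's end was the nearer one, which is 31.8% of the 22 (interval 13.9 to 54.9%), against 15.9% of the other genes with a peak. The summit 300 bases before Eif2s1 lay 236 bases from the start of Atp6v1d, a proton pump subunit gene. The summit beyond the stop of Eef2 lay 169 bases from the start of Dapk3, a kinase gene. The summit counted for Eif5b lay 142 bases from the start of Txndc9, and that counted for Eif6 lay 33 bases from the start of BC029722. At Eef1b2 and Ndufs1, a respiratory chain gene, the distances of 294 and 285 bases were nearly equal, and at Eef1d and Tigd5 they were 157 and 108 bases. The Eef1akmt4 summit was the exception, 75 bases from the member and 765 from Alg3. When only peaks at the end of a single gene were counted, 13 of 71 members had one (18.3%, interval 10.1 to 29.3%), against 8.26% of other genes.

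Strand, known for the members with a listed promoter, placed the peaks at starts. A summit lay within 1 kb of the annotated start of 16 of 55 members (29.1%, interval 17.6 to 42.9%), against 12.4% of other genes with a listed promoter. It lay at the stop of 1 of 55 (1.82%), against 0.654%, and at both ends of none, against 0.189%. The summit was upstream of the start in 12 of the 16 (75%, interval 47.6 to 92.7%), against 52.7% of 2188 such positions at other genes, a value inside the interval. The summits farthest upstream, at Eif5b, Eif2s1 and Eef1b2 (574, 300 and 294 bases), were each nearer an end of a neighbouring gene. Eef1akmt4 and its read-through gene share the same summit, 75 bases before the start, which is counted for both in this paragraph. The median position was 77 bases before the start in members and 13.5 bases before it in other genes, and 14 of the 16 member summits were within 300 bases of it (87.5%, interval 61.7 to 98.4%), against 79.7% of those at other genes, a value inside the interval.

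**Figure D3:**
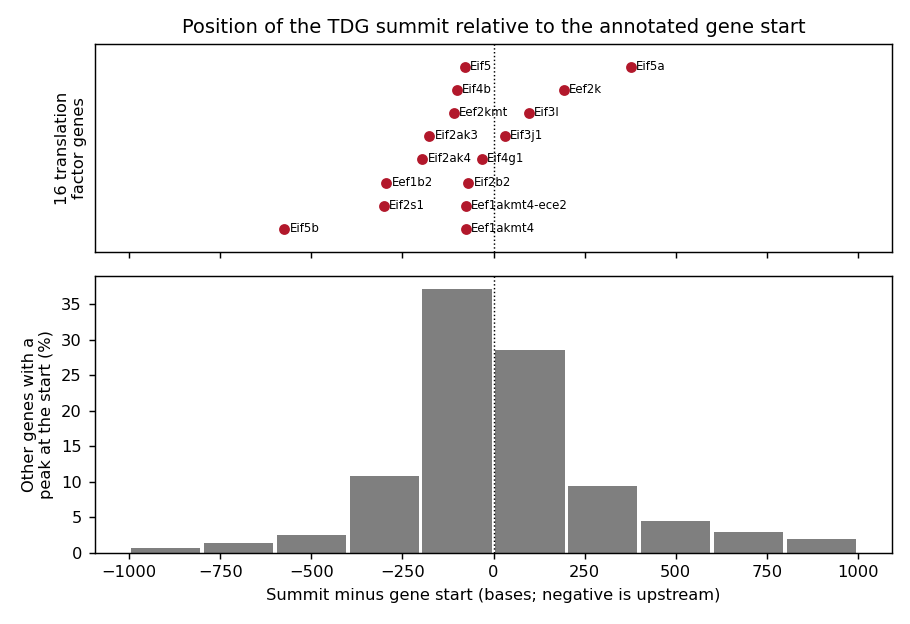
Position of the TDG summit relative to the annotated gene start (x axis, bases, negative upstream) for the 16 translation factor genes with a peak at the start, above, and for the other genes as the percent of positions in bins of 200 bases, below. Vertical spread in the upper panel only separates the names. Most members sit between 300 bases before the start and the start itself. Eif5b lies farthest upstream (574 bases, a summit nearer the start of Txndc9) and Eif5a farthest inside (376 bases).

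Promoter composition overlapped between members with and without a peak. Median GC content was 62.7% in the 17 promoters of members with a TDG peak and 60.3% in the 38 of members without. The median ratio of observed to expected CpG was 0.791 in members with a peak and 0.864 in members without. CpG-rich promoters made up 14 of 17 (82.4%, interval 56.6 to 96.2%) and 26 of 38 (68.4%, interval 51.3 to 82.5%). These intervals overlap and are too wide to show whether the shares differ. Among the other genes the CpG-rich share was 75.9% with a TDG peak and 36.0% without. The 14 and the 17 count Eef1akmt4 and its read-through gene separately, although they share the same promoter sequence. Eif4b had the highest CpG ratio of the members with a peak (1.21), and its printed sequence holds 26 CG steps, against 12 in that of Eif2s1. Eif5a was the member with a peak whose listed promoter had the lowest GC content (43.3%).

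**Figure D4:**
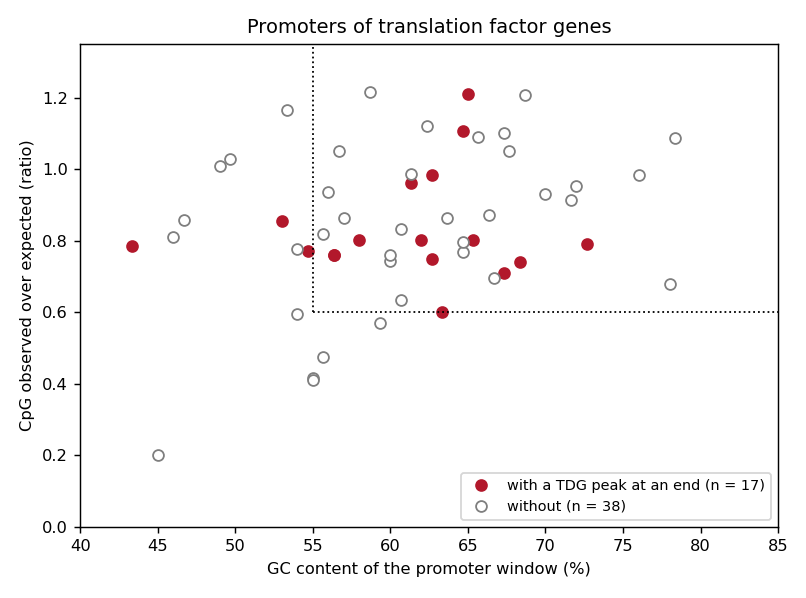
GC content (x axis, percent) and observed over expected CpG (y axis, ratio) of the 300-base promoter window of the 55 translation factor genes with a listed promoter. Red points are the 17 with a TDG peak at an end and open grey points the 38 without; the dotted lines bound the CpG-rich class (55% and 0.6). Both kinds of point spread through the CpG-rich class, which holds 14 of the 17 and 26 of the 38.

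Of the motifs searched in these windows on both strands, CACGTG was present in 13 of 55 members (23.6%) and in 7.86% of the other genes. Within CpG-rich promoters it was present in 11 of 40 members (27.5%) and in 11.7% of the other genes. It did not follow the TDG peaks closely, with 5 of 17 members that had a peak (29.4%) and 8 of 38 that had none (21.1%). The 5, like the 13 and 11 above, count Eef1akmt4 and its read-through gene separately although they share the same promoter sequence. In the Eif4g1 sequence above CACGTG begins 54 bases before the listed promoter start, between a pair of GC boxes that begin 71 and 45 bases before that start. A further match lies after the start. GGGCGG was present in 12 of 17 members with a peak and 28 of 38 without (70.6 and 73.7%), against 46.2% of other genes and 75.2% of other genes with a TDG peak. Within CpG-rich promoters GGGCGG was present in 34 of 40 members (85%) and 79.8% of the other genes. CCGGAA was present in 5 of 17 members with a peak and 17 of 38 without (29.4 and 44.7%), against 19.0% of other genes. Among other genes it was present in 31.0% of those with a TDG peak and 17.3% of those without. Within CpG-rich promoters it was present in 18 of 40 members (45.0%) and 30.5% of the other genes. CCAAT was present in 18 of 55 members (32.7%), against 39.2%, and TGACGTCA in 1 of 55, the promoter of Eef2, against 2.33%. These are matches of letters and say nothing on whether a factor was bound.

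The density of TDG peaks differed between chromosomes, and members were spread over 21 of them. On chromosomes 6, 12, 15 and 16, where at least 20% of the other genes had a TDG peak, 12 of 18 members had one (66.7%, interval 41.0 to 86.7%), against 24% of the other genes there. The 12 include Eef1akmt4 and its read-through gene, which have the same peak. On the remaining 17 chromosomes 10 of 53 members had one (18.9%, interval 9.44 to 32.0%), against 10.2%, a value inside the interval. The cut of 20% was set after the values were seen. Chromosome 11, just below it with 19.7% of other genes, had 1 of 5 members with a peak. All 3 members on chromosome 12 (Eif2s1, Eif2b2 and Eif5) had a peak, as did 4 of 6 on chromosome 15 and 4 of 6 on chromosome 16. Chromosome 6, with the highest share among other genes (25.6%), had 1 of 3. None of the 5 members on chromosome 5 had a peak, and none of the 3 each on chromosomes 3, 4, 9, 18 and 19. Shares of other genes there ran between 3.94% on chromosome 18 and 11.7% on chromosome 9. Chromosomes 2, 7, 10 and 13 had similar shares, 8.34 to 10.7%. Members there had a peak in 3 of 6, 2 of 6, 1 of 3 and 1 of 2 cases. The 1 member on chromosome 17, where the share was 15.4%, had none. Weighting the other genes by the chromosomes of the members raised their share to 13.7%, still below the interval of the member share.

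**Figure D5:**
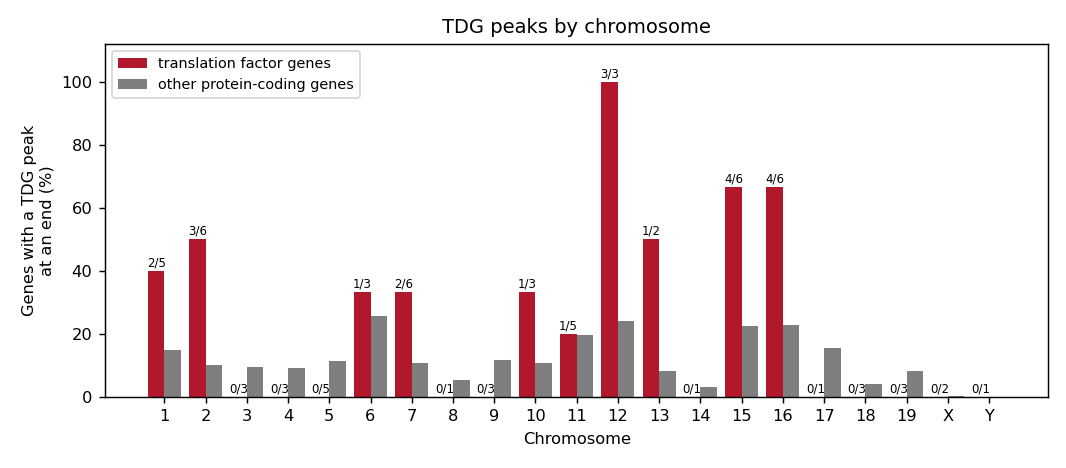
Percent of translation factor genes (red, with counts above the bars) and of other protein-coding genes (grey) with a TDG summit within 1 kb of an end, by chromosome. Of the 4 chromosomes where the grey bars stand above 20%, chromosomes 12, 15 and 16 had 3 of 3, 4 of 6 and 4 of 6 members with a peak, and chromosome 6, with the highest grey bar (25.6%), had 1 of 3.

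The second question was whether p53 occupied these genes. By the rule of a summit in the gene or nearest to it, 1 of 71 members had a p53 peak (1.41%, interval 0.0357 to 7.60%), against 0.509% of other genes. That member was Eef1a1, the main eEF1A gene, which was only the nearest protein-coding gene: the summit (7.78-fold, 38 reads, chromosome 9, 78503324 to 78503623) lay 21731 bases from its end. No member held a p53 summit and none had one within 1 kb of an end. An end of 1 member lay within 10 kb of a p53 summit, against 0.39% of other genes. Ends of 5 members lay within 100 kb (7.04%, interval 2.33 to 15.7%), against 2.07%, which lies below the interval. Besides Eef1a1 these were 4 members whose summits belonged to other genes by the rule. Eif2d, an alternative initiator tRNA carrier, lay 13800 bases from a 30.2-fold p53 summit that was 1138 bases from Dyrk3. Eif4ebp1, which encodes the main inhibitor of eIF4E, lay 37040 bases from a 10.5-fold summit that was 558 bases from Got1l1. Eef1akmt2 lay 97861 bases from a 28.9-fold summit assigned to Fam53b. Eif4enif1 lay 8975 bases from a 1.78-fold summit that lay inside Sfi1 and 8176 bases from the end of Gm51877, in a region where the local background was 81 scaled reads. None of these 5 members had a TDG peak at an end, a group too small to read against the 31.0% of all members.

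Other genes of translation and its control were counted in the same way in 5 lists. Of 20 genes of mTOR control of initiation, 7 had a TDG peak at an end (35.0%, interval 15.4 to 59.2%), against 12.2% of other genes. The highest were Pabpc1, the poly(A)-binding protein that contacts eIF4G (10.1-fold), Rheb, the activator of mTOR (8.07-fold), and Mknk2, a kinase of eIF4E (7.81-fold). The integrated stress response list had 4 of 20 (20%, interval 5.73 to 43.7%), with the transcription factor gene Atf5 (9.37-fold), the mTOR inhibitor gene Ddit4 (7.81-fold) and Ppp1r15b, a subunit of the eIF2 phosphatase (7.55-fold), highest. Mitochondrial translation factors had 3 of 11 (27.3%, interval 6.02 to 61.0%), namely Mtrf1l (8.33-fold), Tufm (6.26-fold) and Gfm2 (4.70-fold). Cytosolic aminoacyl-tRNA synthetases and their scaffold proteins had 2 of 22 (9.09%), Aimp2 (5.73-fold) and Gars (5.01-fold). Genes of termination, recycling and factor maturation had 2 of 18 (11.1%), Abcf1 (6.93-fold) and Gspt1, the release factor eRF3 (5.93-fold). The background of 12.2% lay inside the interval for each list but mTOR control. The lists were not split by promoter class, and the 23.7% of other genes with CpG-rich promoters lies inside the mTOR interval too. None of the 91 genes of these lists was assigned a p53 peak, against 0.509% of other genes, a share at which fewer than 1 gene in 91 would be assigned.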

How the data were processed

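Per the submitters' processing notes, the build was mm10 and the tools included MACS2, Bowtie2, Picard, Trim Galore, ChIPseeker and deepTools, with no versions, roles or order. No source used here gives the control library or the calling threshold. The authors deposited 1 narrowPeak list per library, with positions in bases, fold enrichment as a ratio, −log10 p and −log10 q of the summit, and a score. In all peaks of both lists the deposited score was the −log10 q times 10, rounded down. The lowest deposited −log10 q was 3.02 for TDG and 3.74 for p53.

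Peaks were joined to protein-coding genes of a RefSeq table (GRCm38.p6, the coordinates of mm10) with Python 3.11.15, pandas 2.3.3 and scipy 1.17.1. Summit reads and local backgrounds were recovered by solving, for each peak, the MACS2 formulas for fold enrichment (1 read added to summit and background) and Poisson p, then keeping the solution that gave whole reads within 0.05 at 1 scale per library (0.924 for TDG, 0.7924 for p53), which existed for 3409 of 3410 TDG and 123 of 126 p53 peaks. The promoter used for each gene was its outermost listed start, and strand was known only for genes with a listed promoter, 17492 of 21887 genes and 55 of 71 members. The members without one were Eif6, Eif2b3, Eif3i, Eif4e3, Eif4g2, Eif4ebp1, Eef1akmt3, Eif4e1b, Eef1akmt1, Eif3e, Eif3h, Eef1d, Eif4ebp3, Eif3j2, Eif1a and Eef1g.

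Intervals are exact binomial (Clopper-Pearson) 95% intervals. No test was run, as each group had 1 library. The scripts were tested on simulated peaks. Members and lists were chosen with earlier results of these data known. Named genes were all members with a peak, those with a TDG summit 1 to 3 kb away or a p53 summit within 100 kb, up to 3 genes of each list by fold enrichment, and Tdg and Cdkn1a. The members without a peak, those 3 to 10 kb from a TDG summit, the neighbouring genes at shared peaks and the split of chromosomes at 20% were added after their values were seen.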

Additional observations from a re-analysis of the deposited data

How the results depend on the processing

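The share of members with a TDG peak at an end, 31.0%, ran from 26.8 to 35.0% under a window of 500 bases or 3 kb, a −log10 q of at least 5, overlap in place of the summit, core factors only (16 of 55), starts only, CpG-rich promoters, and, added after the data were seen, without the sex chromosomes or with the shared Eef1akmt4 start counted once. It was 18.3% with TDG peaks of at least the list's median fold enrichment, against 6.59% of other genes, and 18.3% with peaks at the end of 1 gene only, both by construction fewer peaks. Its ratio to the other genes, 2.53, lay between 2.22 and 2.78 in these and in a chromosome-weighted background, except among CpG-rich promoters, where it was 1.47, and 1.32 with the CpG-rich background also weighted by chromosome (26.5% of other genes, an alternative added after the data were seen). The cause was not tested. The share of member peaks above the median of other gene-end peaks, 47.6%, lay between 50 and 58.3% under 3 alternatives. The p53 share of 1.41% was 0 with p53 peaks at or above their median, since the peak nearest Eef1a1 is below it. It was 7.04% with gene ends within 100 kb (interval 2.33 to 15.7%), against 2.07% of other genes, a value below the interval. Single roles hold too few genes to judge by their wide intervals: with peaks at the end of 1 gene only, elongation factors had 0 of 7, eIF2 and initiator tRNA delivery 0 of 6 and the eIF5 and eIF6 group 2 of 5, and with peaks of at least the median fold enrichment eIF2B had 0 of 5. No paired analysis was possible because each group had 1 library. Depth limits the calls: a TDG peak at a gene end rested on as few as 15 summit reads, so a member without a peak is not shown to lack TDG.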
